A study of Mus musculus with 36 samples.

Results

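The step from day 5 to day 6 of differentiation of Xmas mESCs was examined in 8 of the 36 libraries of the series, 4 from each day. Xmas mESCs are female mouse embryonic stem cells of C57/Bl6 background in which Hprt on the X chromosomes carries a fluorescent reporter, GFP on one copy and mCherry on the other. They were expanded in 2i, medium with a pair of kinase inhibitors that holds the naive state, and weaned into differentiation medium, and RNA of the cultures was sequenced every day from day 0 to day 8. Each day has 1 library for each combination of line (X14 or X18) and label (double or single). The labels do not explain double and single, so the words serve only as names here. Libraries of the same line and label were compared between days, which gives 4 pairs per step, and the 4 libraries of day 4 were added to see which changes undid the step before. Only 2 lines were used, and nothing in the labels says that libraries of a line came from separate cultures. The p-values therefore measure the spread between these libraries, which may be partly technical.

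Cells that leave the naive state pass through a formative and then a primed state that resembles the epiblast of the implanting embryo. From there, Nodal, Wnt and Fgf signals induce the primitive streak, the structure through which epiblast cells become mesoderm and endoderm, while other cells become ectoderm or, in culture, epithelium. In bulk RNA a change in the number of cells of a type and a change of RNA per cell cannot be told apart.

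Depth differed between the libraries. Reads in genes ranged from 1274068 to 1558966 on day 4, from 612740 to 2445826 on day 5 and from 719000 to 1573270 on day 6. Values below are RPM (reads per 1000000 reads of the library), listed in the order X14 double, X14 single, X18 double and X18 single, and means are given ± SD over the 4 libraries of a day. The floor was set at 3 reads, which equals 1.04 to 3.90 RPM in the libraries of day 5 and 1.70 to 3.70 RPM in those of day 6, and it covers counting error only. The smallest library, X14 double of day 5, held 79.6% of its reads in genes, and the other libraries of day 5 at most 85.4%, while those of day 6 held 88.7% to 89.2%. In its pair the median tested gene rose by 0.52 on the log2 scale, against 0.03, 0.15 and 0.08 in the pairs X14 single, X18 double and X18 single. The limma fits and the medians of gene lists were repeated without the X14 double libraries. Other summaries were repeated so only where this is stated.

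Of 11926 genes with at least 3 RPM in 4 or more of the 12 libraries of days 4 to 6, 1226 rose (10.3%) and 438 fell (3.67%) from day 5 to day 6. A gene was called when its Benjamini-Hochberg adjusted p in limma, with the pairs as blocks, was under 0.05 and its log2 fold change at least 1. The median of all genes was 0.18, so fold changes are read against that shift. The excess of rises depended on scaling: 73.68% of the called genes rose as deposited, 61.5% after scaling each library to its 75th percentile, 52.23% after quantile normalization and 63.98% without the X14 double libraries. Without X14 single 860 genes rose and 265 fell, and after quantile normalization 867 rose and 793 fell. Of the calls, 718 rises and 338 falls kept their direction and call after scaling and without X14 double, and had the same sign in all 4 pairs.

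The change also ran with gene length. In the fifth of genes with the shortest exons (78 to 2020 bases) the median was -0.14 with 159 rises and 195 falls, and in the fifth with the longest (6270 bases and more) it was 0.38 with 288 rises and 31 falls. In the X14 double pair these medians were -0.43 and 1.28, in the X14 single pair -0.15 and 0.18, in the X18 double pair -0.04 and 0.19, and in the X18 single pair 0.10 and -0.06. The trend was steepest in the pair with the smallest library and had the opposite sign in X18 single. Its part in the changes below was not tested beyond an alternative with the trend removed. Of the genes named below, Pou3f1, Id1, Zic2 and Sall2 fell under the minimum fold in it (log2 fold changes 0.99, -0.86, 0.90 and 0.83).

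Genes of the primitive streak rose from at or near the floor. Fgf8, a growth factor of the streak (chromosome 19, 45736798 to 45742915 in mm10), stood at 0, 0, 0.625 and 1.04 RPM on day 5 and at 25.4, 67.9, 26.96 and 34.1 RPM on day 6. T, the brachyury transcription factor that marks nascent mesoderm (chromosome 17, 8434423 to 8442496), went from 0, 0.823, 0 and 0.347 RPM to 9.61, 43.2, 9.68 and 27.9 RPM. In both genes every library of day 6 lay above every library of days 4 and 5, and on day 6 the libraries labelled single were above those labelled double. The level of day 6 was 55.6 times that of day 5 for Fgf8 (4 reads on day 5, 95% counting interval 21.4 to 206) and 63.6 times for T (2 reads, 17.2 to 532). Both genes, like Wnt3, Wnt8a, Fzd10, Tbx20, Flt1, Anxa1, Anxa3 and others at the floor on days 4 and 5, passed the filter only through day 6, so they had to differ and no p is given for them.

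Wnt3, the ligand needed for streak formation in the mouse epiblast, rose from 0, 2.47, 0 and 2.43 RPM to 23.2, 25.9, 20.04 and 24.8 RPM (log2 fold change 4.05). Here the 4 libraries of day 6 were close to each other. The Wnt receptor gene Fzd10 went from at most 2.50 RPM to between 15.9 and 35.8 RPM. Wnt8a, another Wnt ligand of the early streak, reached 22.8 to 39.5 RPM from at most 2.50 RPM on day 5, and its day 4 values were 15.5, 1.94, 11.3 and 0.560 RPM. The double libraries of day 4 thus lay above those of day 5. Axin2, a general target of Wnt signalling, rose from 1.30, 7.41, 14.4 and 5.91 RPM to 16.4, 23.4, 18.7 and 21.7 RPM (log2 fold change 1.89, SE 0.55, adjusted p = 0.0271 in limma), a call that was lost without the X14 single or the X18 single pair.

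Eomes, a T-box factor needed for mesoderm and endoderm exit from the epiblast, rose from 5.20, 4.94, 8.12 and 1.39 RPM to 34.5, 58.01, 44.2 and 55.8 RPM (log2 fold change 3.51, SE 0.60, limma adjusted p = 0.00205), without overlap of the days. Tbx20, a T-box factor of the later heart, rose from at most 1.39 RPM to between 16.4 and 27.3 RPM. Of 40 listed genes of the streak and its mesoderm, 39 had a line in the table, 8 passed the filter and 6 were called, all higher. Since 7 of the 8 passed the filter only through day 6, they had to differ and their number carries no weight. The summed level of the whole list ranged from 20.8 to 28.1 RPM on day 5 and from 158 to 275 RPM on day 6. Mesp1, Msgn1, Hand2 and 8 further members had no read on either day, and Mixl1 and Gsc reached means of 2.46 and 0.617 RPM on day 6.

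**Figure D1:**
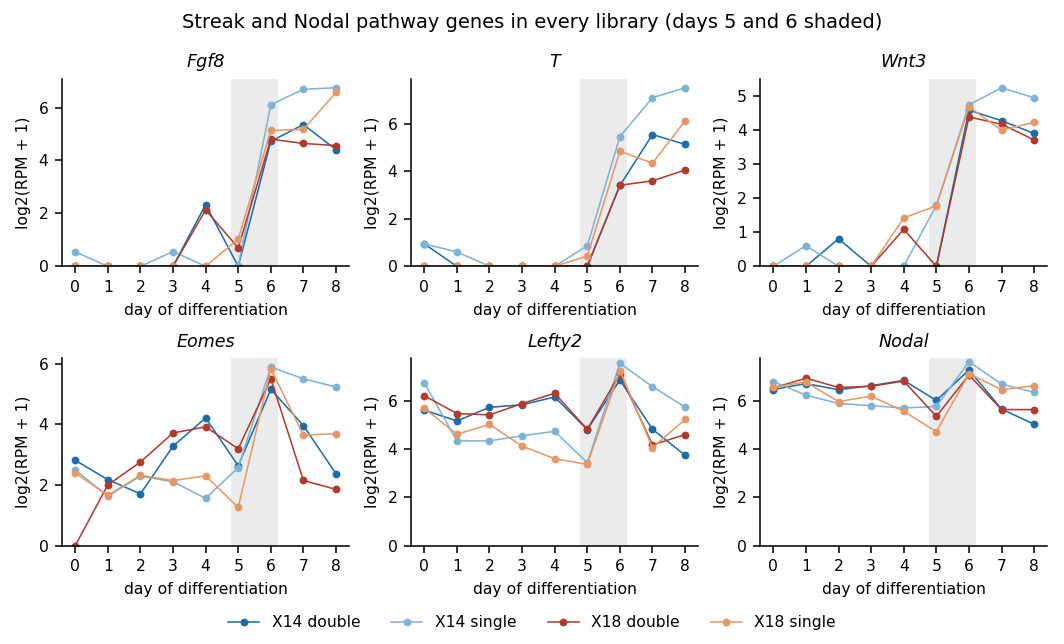
Each panel shows 1 gene in all 36 libraries, with the day of differentiation on the x axis and log2(RPM + 1) on the y axis, and 1 line for each line and label. Fgf8, T and Wnt3 rise from at or near 0 between day 5 and day 6 (shaded) in all 4 series, whereas Eomes, Lefty2 and Nodal were present before, rise in all 4 and are lower again on day 7.

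Genes of the Nodal pathway rose as well. Nodal itself, the secreted signal that maintains the primed epiblast and induces the streak, went from 63.7, 53.5, 39.97 and 25.4 RPM to 154, 196, 133 and 138 RPM (log2 fold change 1.83, SE 0.26, limma adjusted p = 0.00075). Its target and antagonist Lefty2 went from 27.3, 9.88, 27.5 and 9.38 RPM to 117, 190.1, 139.6 and 154 RPM (log2 fold change 3.19, SE 0.43, limma adjusted p = 0.000519), and Lefty1 from 57.6 ± 32.2 to 203 ± 72.8 RPM. The days did not overlap in any of the 3 genes. Lefty1 and Lefty2 are close paralogs, and the counting could split reads between them.

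Trh, which encodes the precursor of thyrotropin releasing hormone, rose from 64.99, 18.1, 27.5 and 7.64 RPM to 80.8, 353, 126 and 226 RPM, with the smallest increase in X14 double. Of 24 tested genes of a list of Wnt, Nodal, Bmp and Notch targets, 8 rose and 3 fell, where 10.3% of all genes rose and 3.67% fell, with a median of 0.45 against 0.18 for all genes. Of the 24, 4 passed the filter only through day 6. The 3 that fell were Id1 and Smad6, both targets of Bmp signalling, and Dll1, a Notch ligand. Id1 went from 60.05 ± 9.74 to 29.5 ± 0.783 RPM (log2 fold change -1.01) and Dll1 from 19.5, 24.7, 28.1 and 25.7 RPM to 17.5, 1.23, 15.2 and 1.24 RPM. Bmp7, which encodes a Bmp ligand, rose from 6.88 ± 3.83 to 31.9 ± 9.32 RPM and had at most 0.672 RPM on day 4. It passed the filter only through day 6, and its log2 fold change of 2.52 was 1.65 without X14 double.

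Several defining endoderm factors had no read. Of 13 listed definitive endoderm genes 3 were tested, all with a positive change, and Trh alone was called, while 5, among them Sox17, Gata6 and Cer1, had no read in the 8 libraries. The summed level of this list was 16.7 to 70.2 RPM on day 5 and 91.0 to 363 RPM on day 6. Among 41 visceral endoderm markers 12 were tested, 2 rose and 3 fell, and 14, among them Ttr, Alb and Gata6, had no read. The summed level of the visceral endoderm list ranged from 1226 to 3022 RPM on day 5 and from 997 to 1576 RPM on day 6. All 3 that fell were apolipoprotein genes. Of these, Apoe went from 1118 ± 537 to 454 ± 91.6 RPM and lost its call without X14 double (log2 fold change -0.99), and Apoc1 went from 56.95 ± 51.1 to 14.5 ± 6.82 RPM. Among 9 tested parietal endoderm genes 3 rose, Col4a1, Col4a2 and Fst, and Lama1 fell. In all tested genes 10.3% rose and 3.67% fell. The filter was passed only through day 6 by 1 of the 12 visceral and 1 of the 9 parietal genes.

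Many epithelial genes rose. Of 30 genes of simple epithelia, all tested, 17 rose and none fell, where 10.3% of all genes rose, and the median was 1.05. Of the 30 genes, 4 passed the filter only through day 6. From day 4 to day 5 the list had 11 genes higher and 1 lower. Krt8, a keratin of simple epithelia (chromosome 15, 101996711 to 102004342), stood at 58.5, 83.9, 59.96 and 70.9 RPM on day 5 and at 694, 448, 509 and 261 RPM on day 6 (log2 fold change 2.74, SE 0.25, limma adjusted p = 6.36e-05). On day 4 it had been at most 14.8 RPM, so the 3 days did not overlap. Its partner Krt18 went from 68.3 ± 11.4 over 387 ± 25.9 to 585 ± 209 RPM on days 4, 5 and 6, with a log2 fold change of 0.52 in the second step, under the minimum. Krt19 went from 13, 44.4, 26.9 and 34.4 RPM to 140.2, 154, 141 and 108 RPM, and Krt7 from 11.7, 5.76, 16.2 and 5.56 RPM to 127, 29.6, 118 and 17.97 RPM. Krt7 was the higher in the double libraries on day 6, as was Krt8.

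Anxa3, a membrane binding annexin (chromosome 5, 96793385 to 96845968), rose from 2.60, 3.29, 1.87 and 5.21 RPM to 63.3, 82.7, 58.1 and 93.6 RPM (log2 fold change 4.59). Like Anxa1, it passed the filter only through day 6, so it had to differ. Anxa1 had no read on day 5 and 8.68 to 27.1 RPM on day 6, which is at least 39.4-fold higher against a floor of 3 reads over the 4 libraries. The calcium binding protein gene S100a6 rose from 12.3 ± 7.29 to 118 ± 17.5 RPM and Dsp, which encodes the desmosomal protein desmoplakin, from 23.1 ± 14.03 to 204 ± 82.04 RPM. None of these 4 genes overlapped between the days. Gprc5a, a receptor gene expressed in epithelia, rose from at most 3.90 to between 17.97 and 35.6 RPM.

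Of 30 listed genes of trophoblast and surface ectoderm, 11 were tested and 8 of them rose, where 10.3% of all genes did, with a median of 2.01 that was 1.58 without X14 double. Of the 11, 3 were tested only through day 6 and had to differ, so part of this count and median was fixed by the filter. Tfap2c, an AP-2 factor of trophoblast, surface ectoderm and germ cells, went from 20.8, 7.41, 28.7 and 6.60 RPM to 110.2, 23.4, 89.2 and 17.97 RPM (log2 fold change 1.79, SE 0.35, limma adjusted p = 0.00413), and the call was lost without the pairing (adjusted p = 0.165). Gata2, a GATA factor of trophoblast and blood, went from 1.30, 0.823, 1.87 and 0.347 RPM to 16.4, 3.70, 11.1 and 3.72 RPM, and Wnt7b from 1.30, 0.823, 2.50 and 2.08 RPM to 28.3, 4.94, 36.6 and 9.92 RPM. In these 3 genes the libraries labelled double were the higher on day 6. Gata2 and Wnt7b passed the filter only through day 6, so they had to differ. Arid3a, a DNA binding factor of trophectoderm, rose from 19.4 ± 5.85 to 80.3 ± 32.1 RPM. Gata3 did not pass the test (means of 10.1 and 10.5 RPM), and the placental genes Elf5, Tpbpa and Prl3d1 and the basal keratins Krt5 and Krt14 had no read on either day. The summed level of the list was 292 to 795 RPM on day 5 and 1496 to 3998 RPM on day 6, to which Peg10 contributed most.

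Neural genes took no common direction. Of 35 listed genes 11 were tested, Olig2 rose, Elavl3 and Crabp1 fell, the median was 0.04, and 15 had no read. In all tested genes 10.3% rose and 3.67% fell. Of 34 retinoic acid and Hox genes 9 were tested, Rdh10 rose, Crabp1 and Crabp2 fell, and 13 had no read. Flt1, a receptor of vascular endothelial growth factor, rose from 0, 1.65, 1.87 and 4.52 RPM to 60.5, 56.8, 55.3 and 47.7 RPM (log2 fold change 4.77). It passed the filter only through day 6, so it had to differ. No other gene of the endothelial and blood list was called higher. Of 24 listed 7 were tested, Pecam1 and Plvap fell, and Kdr, Cdh5, Emcn and the embryonic globins had no read.

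Matrix and contractile genes were among the rises. Col5a1 and Efemp1, which encode a fibrillar collagen chain and a fibulin, went from at most 7.99 and 3.29 RPM on day 5 to 56.7 to 88.9 and 13.1 to 37.03 RPM on day 6. Col4a1 and Col4a2, overlapping neighbours that encode the main collagen of basement membranes, rose from 25.6 ± 18.2 and 8.05 ± 5.13 RPM to 114 ± 36.4 and 69.8 ± 16.1 RPM (log2 fold changes 2.52 and 3.51, SE 0.53 and 0.59). In both, X14 double of day 5 was the lowest library, and without that replicate the fold changes were 1.80 and 2.68 and stayed called. Serpinh1, the chaperone of collagen folding, went from 116, 154, 114 and 150.5 RPM to 295, 337, 284 and 334 RPM (log2 fold change 1.24, SE 0.12, limma adjusted p = 7.78e-05), an even change in all 4 pairs. Of 24 tested matrix genes 7 rose and 1 fell, where 10.3% of all genes rose and 3.67% fell. Their median was 0.87 and 0.50 without X14 double. The filter was passed only through day 6 by 1 of the 24. Of 9 tested mesenchymal genes Mmp14, Lox and Loxl2 rose and Thy1 fell. Lox passed the filter only through day 6, so it had to differ.

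Of 24 tested actin and contractile genes 5 rose and 1, Myl7, fell, where 10.3% of all genes rose and 3.67% fell. The filter was passed only through day 6 by 2 of the 24, Acta2 among them. Cald1, an actin binding regulator of contraction, went from 64.99, 160.5, 117 and 173 RPM to 464, 542, 387 and 458 RPM. Tagln and Acta2, markers of smooth muscle and contractile mesenchyme, rose from day 4 to day 5 (4.84 ± 3.95 to 175 ± 78.05 RPM, and no read to 10.5 ± 10.7 RPM), and had 334 ± 81.99 and 25.8 ± 9.36 RPM on day 6. These last increases were less firm: Tagln fell under the minimum fold after scaling, and Acta2 lost its call without X14 double.

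Imprinted genes included several steep rises. H19, a maternally expressed non-coding RNA (chromosome 7, 142575529 to 142578143), stood at 454, 272, 651 and 274 RPM on day 5 and at 3534, 943, 3350 and 643 RPM on day 6 (log2 fold change 2.09, SE 0.25, limma adjusted p = 0.00026). Igf2, the paternally expressed growth factor gene beside it (142650766 to 142666816), went from 7.80, 20.6, 16.2 and 22.9 RPM to 297, 64.2, 133 and 39.7 RPM. The double libraries of day 6 exceeded the single ones in both genes, and the X18 single library of day 6 overlapped day 5 for H19. Peg10, a retrotransposon derived gene needed for the placenta, went from 218, 249, 644 and 327 RPM to 3467, 1408, 2631 and 1291 RPM, after a fall from 718 ± 335 RPM on day 4. Peg3, Zdbf2 and Ascl2 also fell and then rose. Among 29 tested imprinted genes 7 rose and none fell, where 10.3% of all genes rose and 3.67% fell. Their median of 0.18 was that of all genes.

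**Figure D2:**
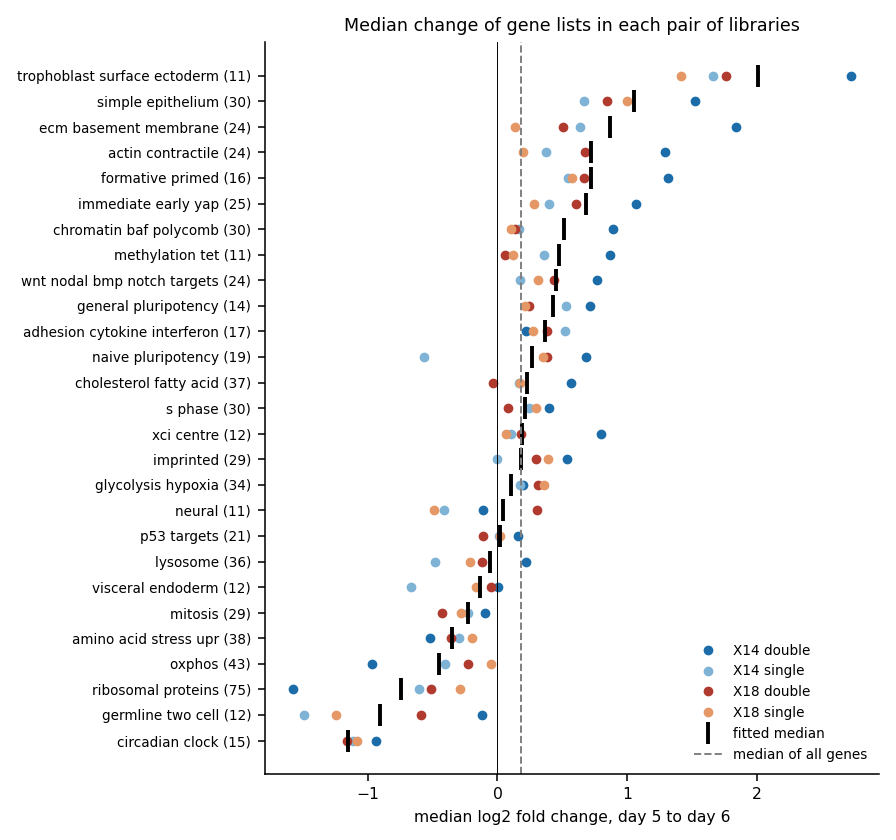
Each row is a gene list with the number of tested members in brackets, the x axis is the median log2 fold change from day 5 to day 6, coloured points are the 4 pairs of libraries, the black bar is the median of fitted values and the dashed line the median of all genes (0.18). X14 double lies far from the other pairs in several lists, as the highest of the 4 pairs for trophoblast genes and the lowest for ribosomal proteins, while the clock genes lie between -1.16 and -0.93 in all 4 pairs.

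Genes that mark pluripotent cells and the primed state were partly regained. Of 16 formative and primed genes, 13 had been called lower from day 4 to day 5 (7.87% of all genes were called lower in that step). From day 5 to day 6, 6 rose and none fell, where 10.3% of all genes rose, and the median of the list was 0.72. The largest change was that of Fgf5, the classic marker of the primed epiblast (chromosome 5, 98254184 to 98277030). It stood at 55.1, 69.2, 41.7 and 45.96 RPM on day 4, at 5.20, 5.76, 2.50 and 6.60 RPM on day 5 and at 74.6, 131, 80.2 and 119.6 RPM on day 6. The log2 fold change of the last step was 4.38 (SE 0.23, limma adjusted p = 2.42e-06), and days 4 and 6 were far above day 5 in every library.

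Pou3f1, a POU factor of the primed state, regained part of its level, from 209 ± 92.1 RPM on day 4 over 23.4, 68.3, 41.9 and 54.9 RPM to 61.1, 129.6, 87.1 and 131 RPM (log2 fold change 1.15, SE 0.17). Otx2 and Dnmt3b, which belong to the same state, did not pass the test in the second step. Otx2 stood at 270.1 ± 27.4, 109 ± 7.94 and 105 ± 24.1 RPM on days 4, 5 and 6, and Dnmt3b at 1849 ± 774, 562 ± 290.2 and 755 ± 199 RPM. The list of general pluripotency genes had 6 rises and no fall among 14, where 10.3% of all genes rose, and 5 of the 6 had fallen before. L1td1, which encodes an RNA binding protein of embryonic stem cells, went from 683 ± 63.4 over 216 ± 56.2 to 637 ± 141 RPM and Tdgf1, the Nodal co-receptor Cripto, from 874 ± 57.99 over 330 ± 68 to 822 ± 350.2 RPM (log2 fold changes of the second step 1.58 and 1.24, SE 0.17 and 0.24).

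Nanog, a factor of naive cells that is also expressed at the streak, rose from 159, 106, 122 and 80.6 RPM to 348, 301, 370.5 and 343 RPM (log2 fold change 1.58, SE 0.35, limma adjusted p = 0.008), above its day 4 level of 130.2 ± 97.02 RPM. The central factors Pou5f1 and Sox2 were not called. Pou5f1 stood at 1205 ± 122, 919.6 ± 265 and 687 ± 146 RPM and Sox2 at 244 ± 65.03, 87.3 ± 20.5 and 104 ± 38.97 RPM on days 4, 5 and 6, so these defining transcripts of embryonic stem cells were still present. Of 19 tested naive genes 3 rose, Nanog, Klf2 and Tdh, where 10.3% of all genes rose, and the last pair stayed below day 4. The filter was passed only through day 6 by 3 of the 19. Klf2 lost its call without X14 double (log2 fold change 0.80, limma adjusted p = 0.0996).

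Over all genes, the step from day 4 to day 5 had 730 rises (6.12%) and 939 falls (7.87%), and 365 genes (3.06%) fell and then rose, while 135 (1.13%) rose and then fell. Rises in both steps numbered 59 and falls in both 35. The steps share the libraries of day 5, so an error in a day 5 library adds to both patterns, and the counts have no test. After scaling to the 75th percentile 275 genes fell and then rose and 190 rose and then fell, and without X14 double 269 and 160. Scaling also turned the step to day 5 from 43.74% to 53.54% rises among the calls.

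A comparison without shared libraries crossed the lines: the first step was taken in one line and the second in the other, and a gene counted when both pairs of a line moved at least 1 on the log2 scale. Of 824 genes that fell in X14 to day 5, 206 (25.0%) rose in X18 to day 6, where 5.97% of all genes did. Of 662 genes that fell in X18, 133 (20.1%) rose in X14, where 8.44% of all did. For genes that rose and then fell, the shares were 15.2% of 499 against 2.83% with the first step in X14, and 9.63% of 831 against 4.22% with the first step in X18. In the last case 90 of the 831 genes rose again, more than the 80 that fell, and their median change to day 6 was 0.24 against 0.26 for all genes. These shares have no test, since there were 2 lines. They were not repeated without X14 double, whose libraries enter each of them.

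The direct comparison of day 6 with day 4 does not use day 5. It had 1213 rises (10.2%) and 571 falls (4.79%). The 365 genes that fell and then rose had a median of -0.04 in it, with 15 above, 13 below and 337 not called, and the 135 genes that rose and then fell had a median of -0.02, with 7 above, 6 below and 122 not called. Both groups were chosen by opposite changes around day 5. An error in day 5 alone would also give medians near 0, so these values do not test a return to day 4. The first group had a median level of 9.30 RPM on day 5 and the second of 35.0 RPM, against 28.2 RPM for all tested genes.

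**Figure D3:**
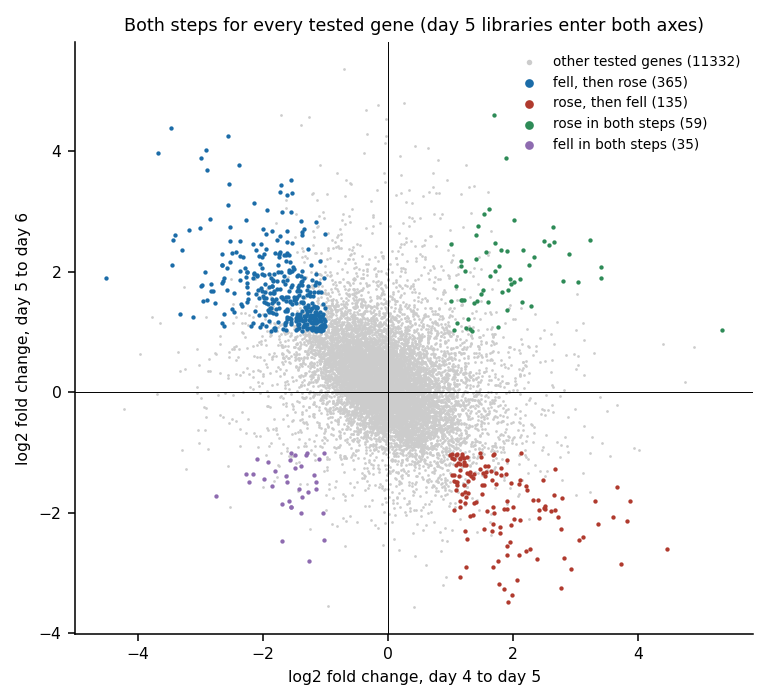
Every point is a tested gene, with its log2 fold change from day 4 to day 5 on the x axis and from day 5 to day 6 on the y axis, and called reversals are coloured. The 365 genes that fell and then rose and the 135 that rose and then fell outnumber the 59 and 35 called in the same direction in both steps, and the day 5 libraries enter both axes with opposite sign.

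Metabolic genes were among those that fell and then rose. Slc16a3, which encodes the lactate exporter MCT4, stood at 421, 417, 345 and 371 RPM on day 4, at 119.6, 195, 125 and 173 RPM on day 5 and at 414, 663, 527 and 583 RPM on day 6 (log2 fold change of the second step 1.85, SE 0.15, limma adjusted p = 3.44e-05). Hk2, the hexokinase that starts glycolysis, went from 326 ± 58.1 over 121 ± 58.5 to 322 ± 59.02 RPM, and Egln3, an oxygen sensor gene induced by hypoxia factors, from 300.5 ± 41.2 over 84.05 ± 5.49 to 263 ± 41.1 RPM. The glucose transporter genes Slc2a1 and Slc2a3 rose above day 4, to 2696 ± 143 and 4824 ± 587 RPM from 768 ± 106 and 1590 ± 506 RPM on day 5. Of 34 tested genes of glycolysis and hypoxia 9 rose and 1, Aldoc, fell, where 10.3% of all genes rose and 3.67% fell. The rises were the 3 transporters, Hk2, Pfkfb3, Egln1, Egln3, Adm and Ankrd37, while the median of the list was 0.10. The enzymes Eno1 and Ldha did not pass the test (log2 fold changes 0.13 and 0.23).

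Some early response genes of growth factor signalling also fell and then rose. Ier3 went from 50.7 ± 6.16 over 12.4 ± 4.95 to 62.5 ± 6.28 RPM, and Dusp1, a phosphatase that dampens MAP kinase signals, from 84.95 ± 13.01 over 27.9 ± 4.22 to 66.9 ± 15.04 RPM. Dusp9, an X-linked phosphatase gene whose product acts on ERK (chromosome X, 73639419 to 73643514), went from 625, 142, 643 and 131 RPM over 153, 67.5, 277 and 64.98 RPM to 1203, 539, 1082 and 491 RPM (second step 2.71, SE 0.22, limma adjusted p = 3.34e-05). Libraries labelled double were above those labelled single on all 3 days. Of 25 tested immediate early and YAP response genes 8 rose and 1, Klf10, fell, where 10.3% of all genes rose and 3.67% fell. Their median was 0.69 and 0.40 without X14 double. The filter was passed only through day 6 by 3 of the 25. In the step before, 7 of the 25 had risen and 5 had fallen, with a median of 0.54, and those 5 were among the 8 that then rose.

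Irf1, a transcription factor of the interferon response, stood at 224, 91.9, 214 and 75.1 RPM on day 4, at 62.4, 32.9, 57.5 and 22.6 RPM on day 5 and at 214, 194, 223 and 166 RPM on day 6 (log2 fold change 2.29, SE 0.21, limma adjusted p = 7.44e-05). Irgm1, an interferon induced GTPase gene, went from 10.4, 0.823, 9.37 and 2.08 RPM on day 5 to 48.6, 56.8, 58.1 and 71.9 RPM, and Parp14 from at most 3.12 to between 20.98 and 35.2 RPM. Of 17 tested genes of a list of adhesion, cytokine and interferon genes Irf1, Ly6e and Csf1 rose and none fell, where 10.3% of all genes rose. Only Irf1 had fallen before, and Csf1 passed the filter only through day 6, so it had to differ. In the step to day 5, 3 of the 17 had risen and 1 had fallen. Csf1, a macrophage growth factor gene, had no read on day 4 and 1.13 ± 1.01 and 20.8 ± 13.9 RPM on days 5 and 6.

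Further named genes with a fall and a rise had diverse roles. Tnfrsf19, a receptor of the tumor necrosis factor family, went from 6.50, 2.47, 6.87 and 3.82 RPM to 27.7, 96.3, 35.9 and 60.7 RPM, with the double libraries below the single ones on day 6. Prdm1, a repressor in the germ cell and other lineages, had 15.2 ± 11.8, 2.41 ± 3.82 and 21.8 ± 10.6 RPM on days 4, 5 and 6. Mesdc1, Zdbf2 and Cachd1 had means of 20, 86.2 and 22.9 RPM on day 4, of 6.74, 31.5 and 9.27 RPM on day 5 and of 42.1, 179 and 56.03 RPM on day 6. The last of the largest rises were Tchh and Ppp2r2c, with 23.7 ± 8.64 and 69.7 ± 7.73 RPM on day 6 from 1.70 ± 2.64 and 4.86 ± 3.20 RPM.

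**Figure D4:**
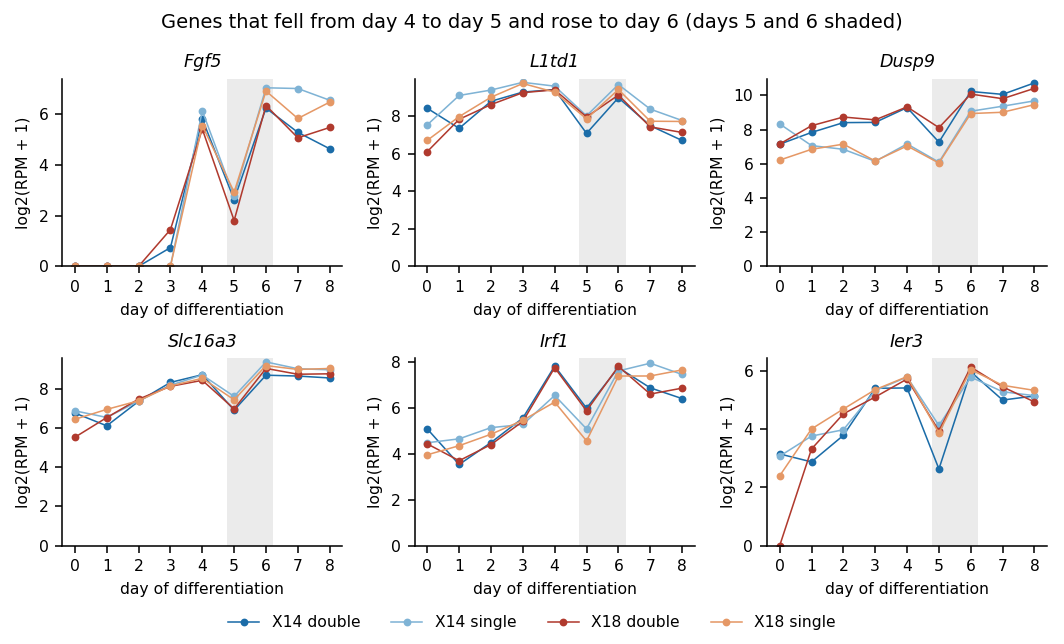
Each panel shows 1 gene in all 36 libraries, with the day on the x axis and log2(RPM + 1) on the y axis, and 1 line for each line and label. All 6 genes dip on day 5 in every series and are higher again on day 6 (shaded), and Fgf5 had no read on day 0 while Dusp9 did.

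The reverse pattern, a level on day 5 above days 4 and 6, included genes that respond to glucose and genes of the circadian clock. Txnip encodes a binding partner of thioredoxin that limits glucose uptake (chromosome 3, 96557957 to 96561883). It stood at 406, 347, 433 and 384 RPM on day 4, at 1429, 1025, 1420 and 1180 RPM on day 5 and at 253, 107, 212 and 135 RPM on day 6. The log2 fold change of the last step was -2.90 (SE 0.16, limma adjusted p = 2.89e-06), and day 6 lay below day 4 as well (-1.23). On day 7 it was higher again, at 634 ± 240.5 RPM. Its paralog Arrdc4, named after its values were seen, went from 75.99 ± 10.98 over 182 ± 14.3 to 34.01 ± 6.21 RPM (second step -2.43, SE 0.16, limma adjusted p = 1.08e-05). Gm15441 overlaps Txnip on the opposite strand and had 69.2 ± 5.63, 238 ± 36.7 and 35.5 ± 12.2 RPM. No source used here says whether counting used the strand, so reads of this pair cannot be told apart.

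Several clock genes fell. A list of 20 genes of the circadian oscillator and its output was written after the values were seen, so its counts only describe it: 15 were tested, 7 fell from day 5 to day 6, none rose, and 6 of the 7 had risen in the step before. The other 8 were not called, and 3 of the 15 had a positive change. Of all tested genes 3.67% fell and 10.3% rose from day 5 to day 6. In the step before 6.12% rose, and 1.13% rose and then fell. The median was -1.16, with -0.93, -1.12, -1.16 and -1.09 in the 4 pairs. Per1, a period gene and repressor in the clock (chromosome 11, 69095217 to 69109960), stood at 29.6, 34.3, 36.04 and 45.4 RPM on day 4, at 157, 204, 220.5 and 178 RPM on day 5 and at 33.4, 22.2, 37.3 and 21.1 RPM on day 6 (second step -2.77, SE 0.23, limma adjusted p = 3.57e-05). The nuclear receptor gene Nr1d1, also a repressor within the clock, went from 16.9 ± 5.03 over 62.3 ± 17.3 to 14.3 ± 10.7 RPM and the repressor Bhlhe41 from 14.2 ± 6.02 over 52.4 ± 6.29 to 14.9 ± 6.01 RPM. The output factors Dbp and Tef and the repressor Cry1 had log2 fold changes of -2.21, -1.16 and -1.63, and Nr1d2 of -1.16. Nr1d1 and Dbp overlap Thra and Sphk2 on the other strand, which had 131 and 102 reads on day 5 and 115 and 170 on day 6. Reads in these overlaps cannot be told apart either. The activators did not pass the test: Arntl had 12.1 ± 3.75 and 12.1 ± 3.29 RPM and Clock 13.1 ± 3.81 and 9.32 ± 3.82 RPM on days 5 and 6.

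The E-box CACGTG is a sequence that clock activators and several other factors bind. It reads the same on both strands and was searched in RefSeq promoters of GRCm38.p6 that run from 250 bases before to 50 after each start. It was present for 4 of the 7 clock genes that fell, namely Per1, Cry1, Tef and Bhlhe41, and for Arrdc4, but was not found in these windows of Nr1d1, Nr1d2, Dbp, Txnip, Trim63 or Ddit3. Among genes with a promoter in the table it was found for 19 of the 93 that rose and then fell (20.4%), 43 of the 237 that fell and then rose (18.1%), 1033 of 8366 tested genes (12.3%) and 2187 of all 27025 genes (8.09%). A match is a description of the letters and not of binding. These 5 windows are shown because their genes rose to day 5 and fell to day 6, each read along the strand of its gene with the motif in capitals.
Per1, chr11:69098771-69098800, plus strand, motif 166 bases before the start: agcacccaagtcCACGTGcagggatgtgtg
Cry1, chr10:85185097-85185126, minus strand, motif 60 bases before the start: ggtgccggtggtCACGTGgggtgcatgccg
Bhlhe41, chr6:145865556-145865585, minus strand, motif 153 bases before the start: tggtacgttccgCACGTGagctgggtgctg
Tef, chr15:81802534-81802563, plus strand, motif 127 bases before the start: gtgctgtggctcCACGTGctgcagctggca
Arrdc4, chr7:68749414-68749443, minus strand, motif 193 bases before the start: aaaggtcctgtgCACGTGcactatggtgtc

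**Figure D5:**
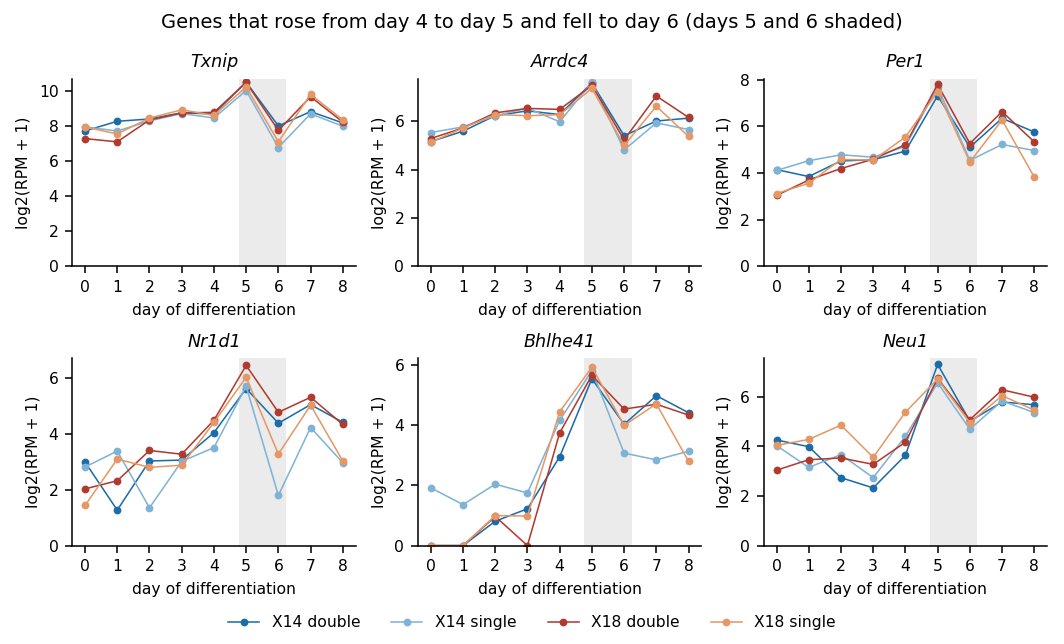
Each panel shows 1 gene in all 36 libraries, with the day on the x axis and log2(RPM + 1) on the y axis, and 1 line for each line and label. Txnip, Arrdc4, Per1, Nr1d1, Bhlhe41 and Neu1 are highest on day 5 and lower on day 6 (shaded) in all 4 series.

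Other genes that stood higher on day 5 than on days 4 and 6 came from several functions. Trim63, a ubiquitin ligase of muscle wasting, went from 79.3, 28.8, 63.7 and 37.2 RPM to 10.2, 2.47, 6.91 and 3.72 RPM, and Adck3, a mitochondrial gene of coenzyme Q synthesis, from 36.6 ± 6.99 to 3.98 ± 2.70 RPM. Aqp3, a water and glycerol channel gene, stood at 90.99, 23.9, 69.95 and 11.1 RPM on day 5 and at 21.5, 0, 20.7 and 1.24 RPM on day 6, with the double libraries above the single ones on both days. On day 0 it had stood higher, at 192 ± 81.3 RPM. Days 5 and 6 overlap for Aqp3, and its call was lost without the pairing (adjusted p = 0.0758 in limma). Ddit3, the stress factor CHOP, went from 85.8, 67.5, 61.8 and 50.7 RPM to 10.2, 9.87, 11.8 and 4.96 RPM (log2 fold change -2.90, SE 0.24, limma adjusted p = 3.44e-05), and days 5 and 6 did not overlap. Mars, on the other strand over Ddit3, had 1498 and 1277 reads on these days, and reads in their overlap cannot be told apart. Of 38 tested genes of amino acid stress and the unfolded protein response 3 fell and none rose, where 3.67% of all genes fell and 10.3% rose. Their median was -0.35 and -0.19 without X14 double. The other members that fell were Herpud1 and Chac1, and neither had risen in the step before.

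The transcripts 2410006H16Rik and Gm16185 fell from 373 ± 232 and 23.4 ± 8.22 RPM to 54.1 ± 21.1 and 4.00 ± 2.80 RPM. The second overlaps Slc25a36 on the other strand, which had 1422 and 478 reads on days 5 and 6. Txndc16, a thioredoxin domain gene, fell from 31.2 ± 9.03 to 6.37 ± 3.82 RPM, and E330020D12Rik from 89.7, 12.3, 39.97 and 9.03 RPM to 11.9, 1.23, 8.98 and 0.620 RPM. In all genes 6.12% rose to day 5 and 1.13% rose and then fell. Among 36 tested lysosomal genes 10 had risen to day 5, and 4 of these fell to day 6. Among them, Neu1, a sialidase gene, went from 114 ± 28.3 to 29.5 ± 3.40 RPM, and the membrane protein genes Lamp2 and Cd63 from 205 ± 80.3 and 111 ± 62.8 RPM to 78.5 ± 38.2 and 41.05 ± 15.2 RPM. Lipa and Sgsh rose, where 10.3% of all genes did, and the median of the list was -0.06. The filter was passed only through day 6 by 1 of the 36. Insig1, a brake on sterol synthesis, rose to day 5 and fell from 309 ± 102 to 105 ± 12.2 RPM, while 3 of the 37 genes of sterol and fatty acid synthesis rose.

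Other falls followed no rise to day 5. Nupr1, a stress induced chromatin protein gene (chromosome 7, 126623249 to 126627010), had the largest fall that met the naming conditions, from 44.2, 21.4, 32.5 and 18.1 RPM to 5.09, 0, 4.15 and 1.24 RPM (log2 fold change -3.56, SE 0.33, limma adjusted p = 7.78e-05). On day 4 it stood at 53.9 ± 11.4 RPM. Hormad1, a meiotic axis protein gene, had 72.4 ± 41.95, 31.6 ± 22.6 and 6.26 ± 6.09 RPM on days 4, 5 and 6, with the double libraries the higher on each day. Calca, the gene of calcitonin and its related peptide, had 87.98 ± 15.9, 46.5 ± 22.4 and 8.18 ± 3.16 RPM. Both fell in each step.

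Of 12 tested germline genes 4 fell and 2, Dnd1 and Prdm1, rose, where 3.67% of all genes fell and 10.3% rose. The filter was passed only through day 6 by 1 of the 12. Sycp3, a meiotic axis protein gene, fell from 185, 78.2, 95.6 and 96.6 RPM to 37.9, 14.8, 39.4 and 18.6 RPM, after a rise to day 5. It overlaps Chpt1 on the other strand, whose reads went from 443 to 175. Mael, a gene of the piRNA pathway, fell from 58.1 ± 28.5 to 18.2 ± 16.4 RPM, and Dnd1, an RNA binding protein gene of germ cells, rose from 14.6 ± 3.03 to 45.3 ± 2.10 RPM. Dnd1 overlaps Wdr55 on the other strand, which had 190 and 366 reads on days 5 and 6. Reads in this overlap cannot be told apart.

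Of 75 tested ribosomal protein genes 12 fell and none rose (3.67% of all genes fell), and the median was -0.74. Its size depended on X14 double: its pair had a median of -1.58, the others had -0.60, -0.51 and -0.29, and without it the median was -0.49. Rpl12 went from 409.5, 161, 146 and 139 RPM to 36.8, 40.7, 38.01 and 40.3 RPM and was called without that replicate as well (log2 fold change -1.91, limma adjusted p = 3.22e-05). These genes have near-identical copies that could share their reads. With the trend on exon length removed the median of the list was -0.63.

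Oxidative phosphorylation genes had a median of -0.45, which was -0.21 without X14 double, and 1 call among 43, the fall of Cox5b. Replication genes of S phase had 3 rises and no fall among 30, after 9 falls to day 5. Mitotic genes had 1 fall among 29, and p53 targets 1 rise and 1 fall among 21. Of 5 tested histone genes 3 fell, while 35 of the 68 listed had no read. Of 30 tested chromatin genes 4 rose and 2 fell, and of 11 genes of DNA methylation Dnmt1 rose, after 6 had fallen to day 5. In all tested genes 10.3% rose and 3.67% fell from day 5 to day 6, and 7.87% fell to day 5.

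X inactivation is the process that the reporters were made to follow. Of 444 tested X-linked genes 56 (12.6%) rose and 29 (6.53%) fell, where 10.2% of autosomal genes rose and 3.56% fell. The median was 0.09 for X-linked genes and 0.19 for autosomal genes. The difference of the medians was -0.13, -0.02, -0.13 and -0.03 in the 4 pairs. Xist, the RNA that coats the inactive X (103460375 to 103483217), stood at 62.4, 9.88, 152 and 10.8 RPM on day 5 and at 85.9, 29.6, 64.3 and 8.06 RPM on day 6, higher in both pairs of X14 and lower in both of X18 (log2 fold change 0.10, SE 0.46, limma adjusted p = 0.894). It overlaps Tsix on the other strand, which had 50 and 38 reads on days 5 and 6. Hprt, the gene with the reporters, had 64.2 ± 26.7 and 64.9 ± 20.1 RPM, with the double libraries above the single ones on both days. None of 12 tested genes of the X inactivation centre was called.

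The lines and the labels were compared in how they took the step, by an interaction term in limma. No gene was called between X14 and X18 (845 genes at an unadjusted p under 0.05, smallest adjusted p 0.675) or between double and single (1296 genes, smallest adjusted p 0.227). Without X14 double 1 gene, Sarnp, was called between lines and 2 genes, Adm and 1700019E19Rik, between labels. The differences between double and single libraries named above are therefore levels on a day, and were not shown to be differences in the step.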

How the data were processed

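RNA of differentiating Xmas mESCs was sequenced by the authors as 75 bp single-end reads, aligned to mm10 (TopHat2 2.0.12 per the processing notes) and quantified per gene in SeqMonk. The deposited values are log2 RPKM, in which the authors' software wrote a gene without reads as 0.9 read. Whole reads were recovered from the steps between low values for 100% of 25965 genes (tolerance 0.02 reads), and gave the depths, the floors and RPM. Neither the strand setting nor the annotation version is given in the sources used here, so reads shared by overlapping genes on opposite strands cannot be told apart.

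limma 3.58.1 in R 4.3.3 (lmFit and eBayes with a trend) was run on the deposited log2 values of the 12 libraries of days 4, 5 and 6, with day and replicate number as factors. Genes with at least 3 RPM in 4 of the 12 libraries were tested, and a call needed a Benjamini-Hochberg adjusted p under 0.05 and a log2 fold change of at least 1. The numbers 1 to 4 stand for X14 double, X14 single, X18 double and X18 single in the labels, and same-numbered libraries were used as pairs. Their deviations from the day means correlated at 0.101 to 0.267 between days 5 and 6. The same number was not always the best match: libraries 1 and 3 of day 5 matched 3 and 1 of day 6 best. Between days 4 and 5 only library 3 matched its own number best. These other matches shared the label and not the line, so the pairing rests on the labels. Replicates of a day differed by more than sampling noise (chi-squared per gene of 1.46 or more).

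Named genes were the 15 largest rises and falls, and the 10 largest changes among reversals of each kind, that were called, stayed called after scaling to the 75th percentile and without replicate 1, had the same sign in all 4 pairs and averaged at least 20 RPM on the higher day. Members of the lists, Xist, Tsix and Hprt were named besides. Some genes that met these conditions are not reported here. The members and lists were chosen with earlier results of these data known, and the clock list, Arrdc4, the E-box and the removal of the trend on exon length after the values were seen. Alternatives covered the block, the filters, the scaling, thinning to 1 depth, added reads, voom and each replicate left out. The tests were checked on simulated reads. Promoter sequences came from RefSeq for GRCm38.p6.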

Additional observations from a re-analysis of the deposited data

Results flagged for a closer look

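In 80 groups of 4 libraries a lowest or highest value was looked for that lies far from the others (Dixon's test at 95%, which flags about 1 group in 20 by chance), and 2 were found. X14 double of day 5 held 79.6% of its reads in genes, below the other libraries of that day. For Ppp2r2c, a phosphatase subunit gene, X18 single of day 6 stood at 58.3 RPM while the other 3 libraries held 72.6 to 75.2 RPM, and all 4 lay above day 5.

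The step of Xist went in opposite directions in the lines, with both X14 pairs higher and both X18 pairs lower on day 6. The step in X18 minus that in X14 was -1.85 on the log2 scale, and no gene was called for such a difference in limma. Reads of Xist and Tsix cannot be told apart without strand.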

How the results depend on the processing

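Without a minimum fold change 3047, 3069 and 2933 genes were called for day 5 to 6, day 4 to 5 and day 4 to 6, and 817 genes fell then rose and 333 rose then fell. Genes that fell then rose numbered 234 with 3 reads added, and 206 and 133 with the lines crossed. Genes that rose then fell numbered 230 after quantile normalization, 88 at a mean of at least 10 RPM, 209 with the trend on exon length removed (chosen after seeing the data), and 76 and 80 with the lines crossed. With each replicate left out in turn, calls ranged from 1125 to 1569 for day 5 to 6, from 1054 to 1762 for day 4 to 5 and from 1123 to 1771 for day 4 to 6 (both lowest without X18 double), and genes that rose then fell from 80 (without X14 single) to 160. The interaction terms, with no call in the report, gave 0 to 1 gene for line and 0 to 2 for label. Without the replicate block 1376 genes were called for day 5 to 6, and 297 and 107 reversed, and among named genes the calls of Aqp3, Tfap2c, Tagln, Acta2, Klf2, Sox4, Zic2, Sall2, Spry4, Rpl39l and Chac1 were lost.

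Direction turned for 6 genes that were not called. With a replicate left out, Otx2 ranged from -0.24 to 0.024, Sox2 from -0.030 to 0.40, Arntl from -0.29 to 0.28, Xist from -0.40 to 0.54, Tsix from -1.12 to 0.14 and Hprt from -0.077 to 0.14. The named gene Arntl was at -0.092 after scaling to the 75th percentile, -0.051 with voom, -0.0026 with 3 reads added and -0.13 with the length trend removed. Xist was at -0.024, -0.23 and -0.39 under scaling, voom and removal of the trend, and Hprt at -0.067 under scaling. The cause was not tested. Of all values of named genes under alternatives, 1244 kept direction and side of the threshold, 60 in 26 genes lost the call and 16 in 6 genes turned. Depth limits genes near the floor, and most of all X14 double of day 5.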
